A study of Drosophila melanogaster with 3 samples.

Results

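The mitochondrial ribosomal protein genes were followed through single-cell RNA counts of the early germline of the fruit fly Drosophila melanogaster. Members were all genes whose symbol in the deposited gene lists starts with mRpS (26 small-subunit genes) or mRpL (47 large-subunit genes), which gave 73 of the 17785 genes listed in any library. Embryonic cells were dissociated and sorted for GFP, and 1 droplet library was made per group. The unsexed library came from vas-GFP embryos aged 0 to 8 h, and the female and male libraries came from Sxl-GFP, vas-GFP embryos aged 5 to 8 h. All 3 groups thus carried vas-GFP, a reporter of the germ-cell helicase gene vas, and the sexed groups also carried a reporter of the sex-determination gene Sxl. The unsexed library was made with version 2 of the 10x kit and the sexed libraries with version 3, so kit and group cannot be told apart between them. With 1 library per group no difference has a replicate check and none was tested. Every interval is an exact 95% interval for counting error only.

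The mitochondrial ribosome translates the few proteins encoded in mitochondrial DNA, which are subunits of the respiratory chain and of ATP synthase. Its RNAs come from mitochondrial DNA, whereas its proteins are encoded in the nucleus, made in the cytosol and imported. The small subunit reads the messenger RNA, and the large subunit joins the amino acids and releases the chain at the inner membrane. Primordial germ cells of the fly inherit mitochondria with the germ plasm at the posterior pole. They are held transcriptionally quiet at first by the product of the maternal RNA pgc, so a cell's pgc level is used here as a measure of how much of that RNA it still held.

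Unique molecular identifiers (UMIs) totalled 58378567 for unsexed, 109431813 for female and 47345241 for male cells, of which 3657, 9430 and 6329 were kept. Germ cells were defined as cells with UMIs for at least 3 of vas, nos, pgc, zpg, aub, CG17650 and CG14545, which gave 3198 unsexed, 1071 female and 4377 male cells. Other cells, with UMIs for 0 of the 7 genes, numbered 214, 6500 and 1222. Median depth was 16953, 18539 and 7717 UMIs per germ cell of the unsexed, female and male libraries, against 3221, 6438 and 3249.5 UMIs per other cell. The authors also deposited dense tables that hold 1.19 times (female) and 2.52 times (male) the UMIs of the matrices for the barcodes that both hold, for a reason not given in the sources used here, so these depths are those of the matrices. A list of 10 germ-cell markers that the rule did not use summed to 915, 1052 and 1018 CPM (UMIs scaled to a common total) in unsexed, female and male germ cells, against 143, 186 and 192 CPM in other cells. All 10 had UMIs in every class except krimp, which was at 0 in unsexed other cells. The female and male libraries shared 13 cell barcodes, the unsexed and female libraries 1, and the unsexed and male libraries 0.

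Of the 73 members, 72 had UMIs in every library. The exception was mRpL53, listed at 0 in all 3, where a count of 0 allows up to 0.0568 CPM in unsexed germ cells, 0.146 CPM in female ones and 0.0856 CPM in male ones. The annotation places mRpL53 on chromosome arm 2R inside an overlap with CG33155 on the same strand and AGO1 on the opposite strand. The members are spread over the genome, with 11 on X, 12 on 2L, 12 on 2R, 17 on 3L and 21 on 3R. A pair of proteins of the mitochondrial ribosome carry other symbols, tko (the small-subunit protein S12, which sits at the decoding site) and bonsai (the small-subunit protein S15), and their values are given beside the members.

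In unsexed germ cells the level of the 72 detected members ran from 43.3 to 475 CPM, with a median of 126 CPM. Female germ cells had a median of 127 CPM and male ones of 132 CPM. UMIs count transcript molecules, so these levels were not divided by transcript length. The most abundant member was mRpL12, the protein of the flexible stalk that recruits translation factors, with 475 CPM in unsexed germ cells, 557 CPM in female ones and 630 CPM in male ones. In unsexed germ cells it was followed by mRpS10 (329 CPM), mRpS21 (310 CPM), mRpL33 (294 CPM) and mRpL34 (284 CPM). The lowest were mRpL38 (45.3 CPM), mRpS25 (43.8 CPM) and mRpL37 (43.3 CPM). The partner of mRpL12 at the base of the stalk, mRpL10, was far less abundant, with 73.3 CPM in unsexed germ cells, 51.2 CPM in female ones and 59.9 CPM in male ones. From mRpL12 down to mRpL37, the RNA levels of the detected members were thus up to 11.0-fold apart in unsexed germ cells.

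**Figure D1:**
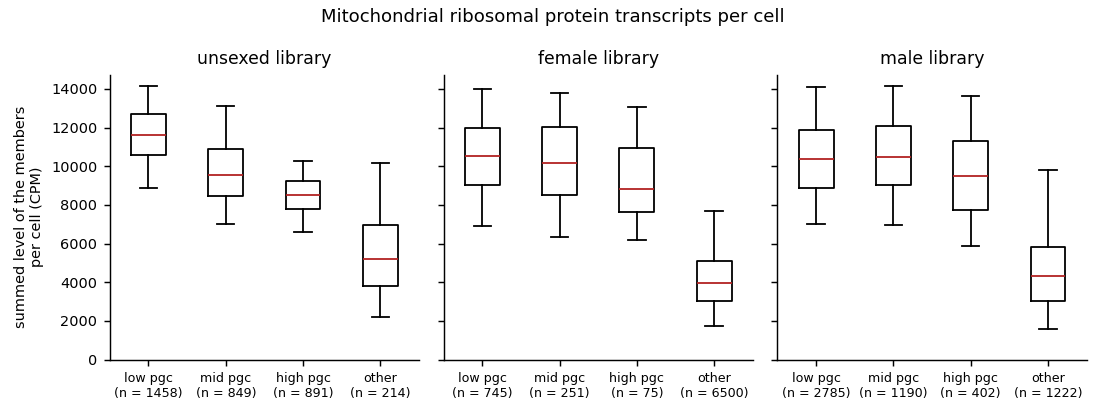
Summed level of the members in each cell (CPM, vertical axis) by library and cell class, as the median (red line), quartiles (box) and 5th to 95th percentile (whiskers) over cells. In the unsexed library the cell medians step down with pgc, at 11632 CPM in low-pgc, 9540 CPM in mid-pgc and 8518 CPM in high-pgc germ cells. In the female library they are 10553, 10168 and 8837 CPM. In the male library they are 10381, 10482 and 9474 CPM, highest in the mid class, and other cells are lowest in each library.

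The first comparison followed the members across germ cells of the unsexed library that differ in pgc. Germ cells with under 100 CPM of pgc (low, 1458 cells), 100 to under 1000 CPM (mid, 849 cells) and at least 1000 CPM (high, 891 cells) were summed by class. Together the members made up 11592 CPM in low-pgc, 9772 CPM in mid-pgc and 8600 CPM in high-pgc cells. Low over high, the summed level was 1.35-fold higher (1.34 to 1.36). The classes had similar depth, with medians of 17801.5, 15837 and 16489 UMIs per cell. With every cell thinned to 2000 UMIs, a median of 19 members was detected per low-pgc, 16 per mid-pgc and 14 per high-pgc cell, and 2 low-pgc and 2 high-pgc cells were too shallow to enter.

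By gene, 61 of 72 members had more CPM in low-pgc than in high-pgc cells, with a median log2 ratio of 0.46 against 0.24 over all genes compared. Of all genes compared, 62.7% had more CPM in low-pgc cells. In low-pgc cells 10 members were at least 2-fold higher and 1 was at least 2-fold lower. Of all 7401 genes with at least 50 UMIs over both classes, 18.3% were at least 2-fold higher and 9.81% at least 2-fold lower, against 13.9% and 1.39% of the members. The members' share past 2-fold higher was thus no larger than that of all genes. Scaling by TMM moved every log2 ratio by 0.22. After it 5 members were past 2-fold higher, 49 of 72 were above 0 and the members' median was 0.24, against 0.02 over all genes. Before this scaling the median was 0.51 over the small subunit and 0.42 over the large subunit.

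The member with the largest ratio was mRpL2, the counterpart of bacterial L2 next to the site of peptide bond formation (FBgn0036135, chromosome arm 3L, 11120847 to 11122041, plus strand). It stood at 204 CPM in low-pgc, 113 CPM in mid-pgc and 63.7 CPM in high-pgc cells, a low-over-high ratio of 3.21 (2.99 to 3.44). The small-subunit gene mRpS25 (FBgn0030572, X, 14582136 to 14582982, minus strand) followed with 59.8, 38.6 and 21.1 CPM in the same order, a ratio of 2.84 (2.51 to 3.22). These steps ran through the mid class in both genes.

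The next 6 were between 2.20 and 2.48-fold higher. They were mRpL46 (81.6 CPM in low-pgc and 32.9 CPM in high-pgc cells), mRpL47 (102 and 41.2 CPM), a protein beside the exit tunnel, and mRpS2 (126 and 51.5 CPM). The rest were mRpL21 (94.1 CPM in low-pgc and 40.3 CPM in high-pgc cells), mRpL43 (61.9 and 27.5 CPM) and mRpL36 (304 and 138 CPM). Across the whole family, the level ran low above mid above high in 52 of 72 members and the opposite way in 3. The same count over all genes was not made, and 62.7% of those compared had more CPM in low-pgc than in high-pgc cells. In the sexed libraries low above mid above high held for 31 members in females and 23 in males, and the opposite order for 15 and 9.

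The gene at the other end was mRpS5, the counterpart of bacterial S5 near the channel where messenger RNA enters (chromosome arm 3L, 24537236 to 24543534, plus strand). It stood at 34.9 CPM in low-pgc, 60.9 CPM in mid-pgc and 82.5 CPM in high-pgc cells, a low-over-high ratio of 0.42 (0.39 to 0.46). It was the only member past 2-fold lower. The other low members had ratios from 0.81 to 0.99. They were mRpL10 (ratio 0.81), mRpL4 of the exit tunnel (0.82), mRpL1 of the L1 stalk (0.83), mRpL52 (0.88), mRpS11 of the platform (0.92), mRpL24 (0.93) and mRpL11 at the stalk base (0.99). Outside the symbol rule, tko had 241 CPM in low-pgc and 318 CPM in high-pgc cells (ratio 0.76), and bonsai 129 and 107 CPM (ratio 1.21).

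Members with a described special role lay between these ends. The GTP-binding protein mRpS29 had 133 CPM in low-pgc and 91.1 CPM in high-pgc cells (ratio 1.46). For mRpL45, which in mammals anchors the ribosome to the inner membrane, the levels were 104 and 88.0 CPM (ratio 1.18), and for mRpL44, which has a ribonuclease III fold, 67.6 and 63.2 CPM (ratio 1.07, 0.99 to 1.16). The mRpL44 interval includes 1, and its log2 ratio is below 0 after TMM scaling. Further values were 289 and 157 CPM for mRpL55 (ratio 1.84), 519 and 422 CPM for mRpL12 (ratio 1.23) and 165 and 128 CPM for mRpS9 (ratio 1.29).

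Related gene lists gave other medians. The nuclear genes of oxidative phosphorylation had a median log2 ratio of 0.26, with 5 of 72 compared at least 2-fold higher in low-pgc cells, and the cytosolic ribosomal proteins 0.08, with 4 of 88. The second median is below the TMM shift of 0.22. Counts in these lists are read beside the 18.3% of all genes past 2-fold higher. Among 15 mitochondrial tRNA synthetase genes 2 were past 2-fold higher, IleRS-m (12.1 CPM in low-pgc and 3.09 CPM in high-pgc cells) and TyrRS-m (54.5 and 22.9 CPM). Of the 15 intervals 6 lay above 1 and 4 below 1, and the lowest ratios were those of SerRS-m (0.51) and ProRS-m (0.53). None of 8 mitochondrial translation factors passed 2-fold in either direction, and 4 of them were above 0. Their intervals lay above 1 in 4 and below 1 in 2, mIF3 (ratio 0.60) and mRRF1 (0.67). Of the genes for mitochondrial DNA replication and transcription, bsf (32.9 CPM in low-pgc and 7.69 CPM in high-pgc cells), which binds mitochondrial RNA, and mtDNA-helicase (39.8 and 14.7 CPM) were past 2-fold higher.

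The RNA of the large subunit itself, mt:lrRNA, could be read in the unsexed library alone, since both sexed libraries held 0 UMIs for mitochondrial genes. On the CPM scale, relative to nuclear UMIs, it stood at 3051 in low-pgc, 2384 in mid-pgc and 2027 in high-pgc cells, the same order as the summed members. The order was not particular to it, since all mitochondrial genes together stood at 19034, 17253 and 16468. In other cells mt:lrRNA stood at 2611, against 2602 in all germ cells. The small-subunit RNA mt:srRNA had few UMIs (389, 228 and 181) and stood at 15.5 in low-pgc, 17.4 in mid-pgc and 12.4 in high-pgc cells on that scale, not in the order of the members. The libraries were made from polyadenylated RNA, per the labels, so neither value measures the amount of ribosomal RNA. Markers of yolk nuclei (sisA and srp) summed to 12.6 CPM in low-pgc and 210 CPM in high-pgc cells, and gut markers to 24.6 and 120 CPM. Their part in the member ratios was not tested.

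**Figure D2:**
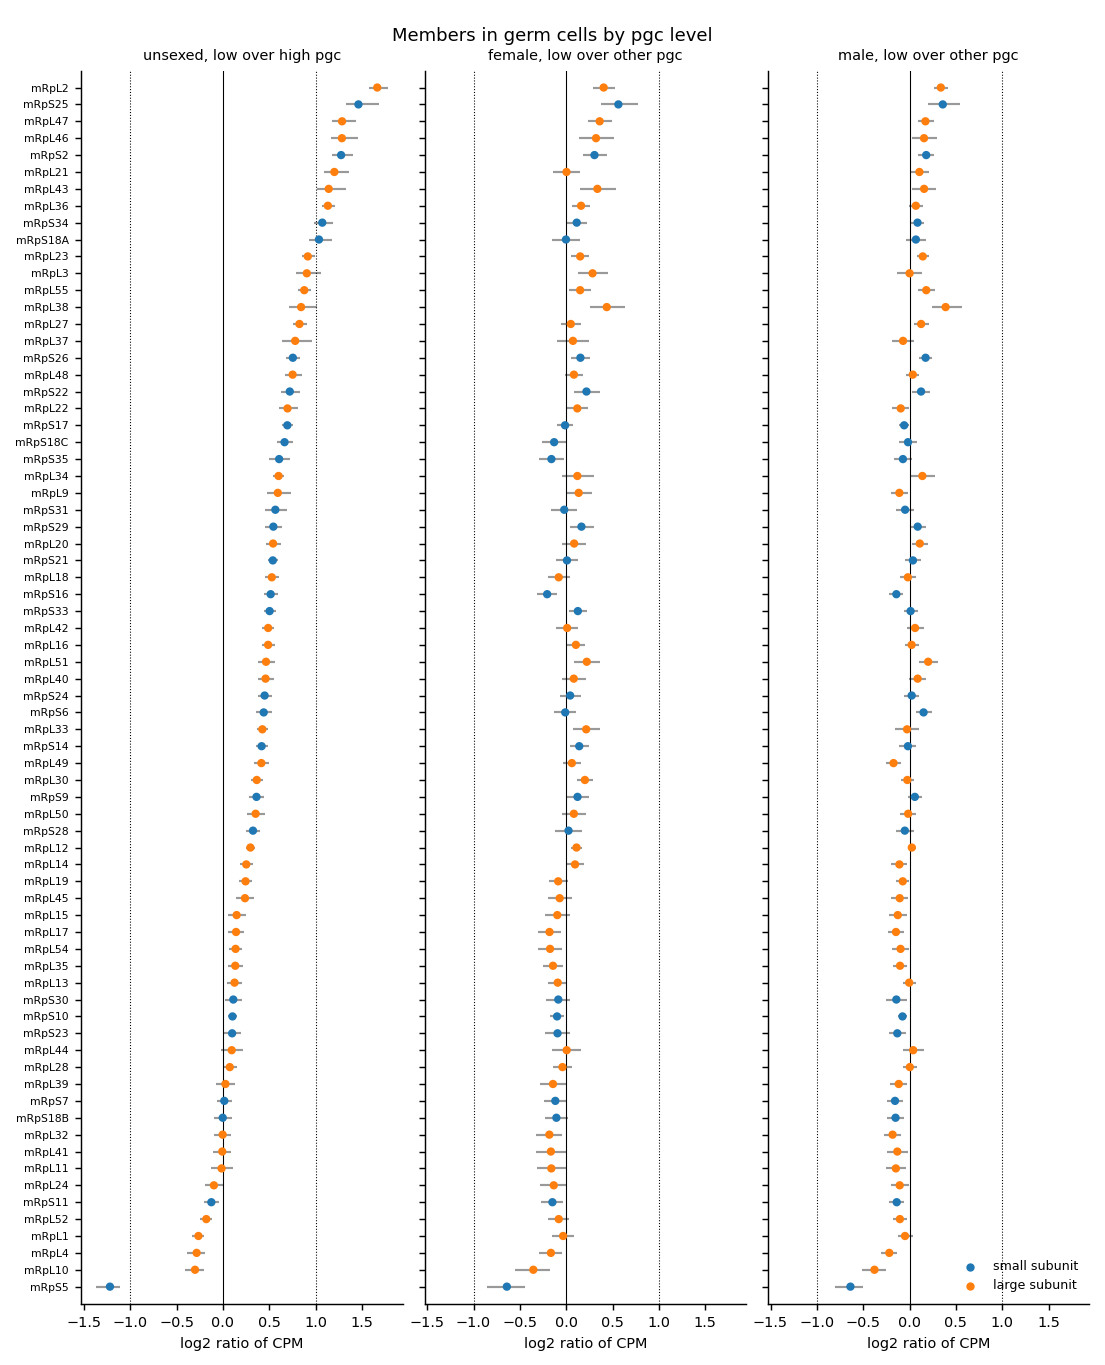
Log2 ratio of CPM + 1, low-pgc over higher-pgc germ cells, for each member in the unsexed, female and male libraries, with 95% intervals for counting error, coloured by subunit, and dotted lines at 2-fold. The unsexed panel sets low against high pgc, and the sexed panels set low against all germ cells with at least 100 CPM of pgc. The unsexed ratios reach from -1.22 for mRpS5 to 1.67 for mRpL2, whereas in the sexed libraries every member lies between -0.64 and 0.56. The contrasts are unlike, so these ranges are not directly comparable.

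In the sexed libraries, low-pgc germ cells (745 female, 2785 male) were set against all germ cells with at least 100 CPM of pgc (326 female, 1592 male). In the female library the members summed to 10375 CPM in low-pgc and 10114 CPM in the remaining germ cells, a ratio of 1.03 (1.02 to 1.04). In the male library the sums were 10421 CPM in low-pgc and 10458 CPM in the remaining germ cells, a ratio of 0.996 (0.990 to 1.003). The high-pgc cells alone, 75 female and 402 male, had the lowest sums of their libraries' germ cells, at 9530 CPM in females and 9803 CPM in males. Mid-pgc cells summed to 10253 CPM in females and to 10639 CPM in males, the highest of the male classes. No member passed 2-fold in either direction in either library. Over all genes, 1.75% were past 2-fold higher and 2.25% lower in the female library, and 0.62% higher and 1.44% lower in the male library. The members' median log2 ratio was 0.02 for females and -0.02 for males, beside 0.04 and 0.02 over all genes, and 40 of 72 members were above 0 in females and 33 in males. Of all genes, 56.1% were above 0 in females and 52.3% in males. Neither median of the members had a steady sign. With germ cells taken at 2 of 7 genes the female median was -0.13 and 13 of 72 members were above 0, and over 14 alternatives the sign turned in 2 for females and 3 for males. These contrasts are narrower than the unsexed one, since the pgc-holding germ cells held 628 CPM of pgc in females and 691 CPM in males, against 3435 CPM in the unsexed high class.

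In both sexed libraries mRpS25, mRpL38 and mRpL2 had the 3 highest ratios and mRpS5 the lowest. In the female library mRpS25 had 71.3 CPM in low-pgc and 47.9 CPM in the remaining germ cells (ratio 1.49, 1.30 to 1.71). Next came mRpL38 (ratio 1.36), mRpL2 (1.33), mRpL47 (1.29) and mRpL43 (1.27). In the male library mRpL38 led (48.7 CPM in low-pgc and 37.0 CPM in the remaining germ cells, ratio 1.32), then mRpS25 (1.29), mRpL2 (1.27), mRpL51 (1.15) and mRpL55 (1.13).

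At the low end mRpS5 had 35.3 CPM in low-pgc and 55.5 CPM in the remaining female germ cells (ratio 0.64, 0.55 to 0.73). Its male levels were 33.2 CPM in low-pgc and 52.2 CPM in the remaining germ cells (ratio 0.64, 0.57 to 0.71). By class it stood at 35.3, 53.4 and 64.5 CPM in female and 33.2, 47.7 and 68.1 CPM in male low-, mid- and high-pgc cells. After it came mRpL10 (ratio 0.78), mRpS16 (0.87), mRpL32 (0.88) and mRpL17 (0.88) in the female library, and mRpL10 (0.77), mRpL4 (0.86), mRpL32 (0.88) and mRpL49 (0.89) in the male library. Of the 61 members above 0 in the unsexed library, 30 were above 0 in both sexed libraries as well. The 11 members below 0 in the unsexed library were below 0 in both sexed libraries too. Of the 10 members past 2-fold higher in the unsexed library, 9 were above 0 in females and 10 in males. These sets were picked by their unsexed ratios, and the same counts over all genes were not made. Nervous-system markers summed to 212 CPM in female low-pgc and 107 CPM in the remaining female germ cells. Yolk-nucleus markers summed to 28.3 CPM in low-pgc and 253 CPM in the remaining female germ cells, and to 15.6 and 126 CPM in the male library. The part of either list in these ratios was not tested.

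The next comparison set female against male germ cells, which shared kit version and age. The members summed to 10304 CPM in female germ cells and 10433 CPM in male ones, a ratio of 0.99 (0.98 to 0.99). In female germ cells 6 of 72 members were at least 1.5-fold higher and 0 at least 1.5-fold lower, where 9.04% of 8038 genes were higher and 1.54% lower. All 6 are on the X chromosome, of which males carry a single copy. The 11 X-linked members were all above 0, with a median log2 ratio of 0.59, and among the 61 autosomal members 9 were above 0, none was past 1.5-fold and the median was -0.13. All X-linked genes compared had a median of 0.51, with 539 of 1441 past 1.5-fold higher, and all autosomal genes -0.10, with 185 of 6563. The X-linked members were all above 0 under every alternative run. Fewer of them passed 1.5-fold under some, with 2 at 2 of 7 germ genes, 3 with doublets kept, 3 with a pseudocount of 5 CPM and 1 among germ cells with at least 100 CPM of pgc.

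The largest ratio was that of mRpS14 (FBgn0044030, X, 19479382 to 19480238, minus strand), a small-subunit protein of the head, which had 208 CPM in female germ cells and 122 CPM in male ones (ratio 1.71, 1.64 to 1.78). It was followed by mRpS25 (64.8 CPM in female germ cells and 39.0 CPM in male ones), mRpL14 (224 and 137 CPM), mRpL38 (69.4 and 44.8 CPM), mRpS30 (119 and 78.2 CPM) and mRpL22 of the exit tunnel (171 and 114 CPM). The remaining X-linked members, mRpL3, mRpL33, mRpL49, mRpL30 and mRpL16, had ratios from 1.26 to 1.47. The X-linked tko had 283 CPM in female germ cells and 240 CPM in male ones (ratio 1.18). The lowest ratios belonged to mRpL24 (0.84), mRpL2 (0.84), mRpL39 (0.84), mRpL32 (0.85) and mRpL10 (0.85). Nervous-system markers summed to 183 CPM in female germ cells and 81.0 CPM in male ones, and median depth was 18539 and 7717 UMIs. Their part in the ratios was not tested.

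**Figure D3:**
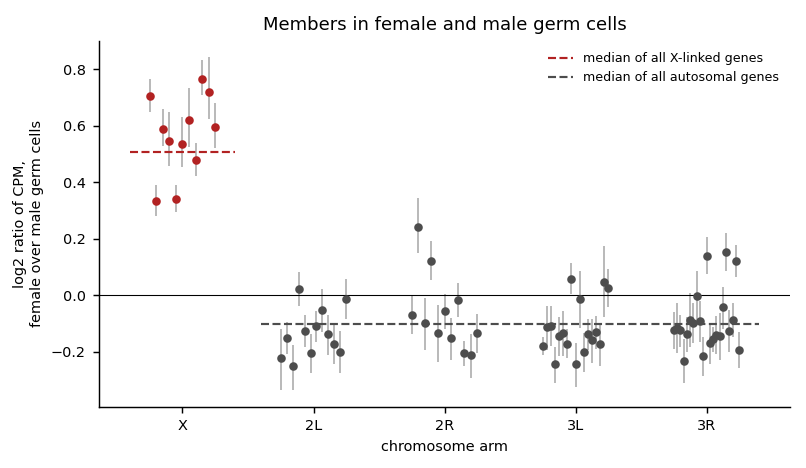
Log2 ratio of CPM + 1, female over male germ cells, for each member by chromosome arm, with 95% intervals for counting error and dashed lines at the medians of all X-linked and all autosomal genes. The 11 X-linked members lie between 0.33 and 0.77, above every autosomal member, the highest of which is at 0.24.

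The last comparison set germ cells against other cells of the same library. The members summed to 10314 CPM in germ and 5437 CPM in other cells of the unsexed library, a ratio of 1.90 (1.84 to 1.96). The sums were 10304 CPM in germ and 4266 CPM in other cells of the female library (ratio 2.42, 2.40 to 2.43). In the male library they were 10433 CPM in germ and 4799 CPM in other cells (ratio 2.17, 2.14 to 2.20). Thinned to 2000 UMIs, a median of 17 members was detected per germ cell in each library, against 10 per unsexed, 7 per female and 8 per male other cell. The thinning left out 4 germ and 43 other cells of the unsexed, 1 and 130 of the female, and 5 and 199 of the male library. Cells with UMIs for 1 or 2 of the 7 genes held 5900 CPM (unsexed), 4351 CPM (female) and 8310 CPM (male).

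In the unsexed library 31 of 72 members were at least 2-fold higher in germ cells and 0 at least 2-fold lower, where 35.4% of all genes were higher and 13.5% lower. In the female library 53 were higher and 0 lower, beside 32.4% and 18.9% of all genes. In the male library 43 were higher and 1 lower, beside 35.5% and 15.1%. The male count was 8 and the median 0.73 when other cells were taken as all cells that fail the germ-cell rule, which adds those with UMIs for 1 or 2 of the genes. The male median over all genes was then 0.35. The members' median log2 ratios were 0.86 (unsexed), 1.30 (female) and 1.16 (male), and those of all genes 0.54, 0.42 and 0.54. TMM scaling moved the log2 ratios down by 0.19 in unsexed, 0.54 in female and 0.21 in male cells, after which the female count was 21 and its median 0.76. The female median over all genes was then -0.11. Before TMM scaling, 65 members were above 0 in all 3 libraries. Taken library by library, 66.2% (unsexed), 61.5% (female) and 66.6% (male) of all genes compared were above 0. How many of all genes were above 0 in every library was not counted.

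The largest ratio in every library was that of mRpL20, a large-subunit assembly protein in bacteria (FBgn0036335, chromosome arm 3L, 13017149 to 13017867, minus strand). It stood at 140 CPM in germ and 24.5 CPM in other cells of the unsexed library (ratio 5.72, 3.66 to 9.50). The female levels were 124 CPM in germ and 17.2 CPM in other cells (ratio 7.24), and the male levels 138 and 24.1 CPM (ratio 5.72). The most abundant member, mRpL12, had ratios of 3.41 (unsexed), 3.87 (female) and 4.12 (male). Other members among the 5 highest were mRpS21, with ratios of 3.43, 4.97 and 4.16 in the unsexed, female and male libraries, and mRpS34, with 3.43, 4.37 and 4.78. Others were mRpL28 in the unsexed (4.73) and female (4.23), mRpL48 in the female (4.06) and mRpS17 in the male library (3.95). Outside the symbol rule tko had ratios of 3.75, 3.81 and 3.90 and bonsai of 2.61, 2.67 and 2.39 in the unsexed, female and male libraries.

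A few members were no higher in germ cells. The small-subunit gene mRpS25 had 43.8 CPM in germ and 76.1 CPM in other cells of the unsexed library (ratio 0.58, 0.44 to 0.76). Its female levels were 64.8 CPM in germ and 78.9 CPM in other cells (ratio 0.82, 0.77 to 0.87), and its male levels 39.0 and 106 CPM (ratio 0.37, 0.33 to 0.41). The early-assembly protein gene mRpS7 had ratios of 0.69, 0.93 and 0.87 in the unsexed, female and male libraries. These were the 2 members below 0 in all 3 libraries. At the low end were also mRpL22 (0.78, 1.15 and 0.65), mRpL43 (0.61, 1.19 and 1.06), mRpS28 in the unsexed (0.92), mRpL44 in the female (1.19) and mRpL38 in the male library (0.79). The female ratios of mRpL22, mRpL43 and mRpL44 and the male ratio of mRpL43 lie below 1 after TMM scaling. X-linked members had a median log2 ratio of 0.83 in unsexed, 1.28 in female and 0.76 in male cells, and autosomal members 0.90, 1.30 and 1.203.

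**Figure D4:**
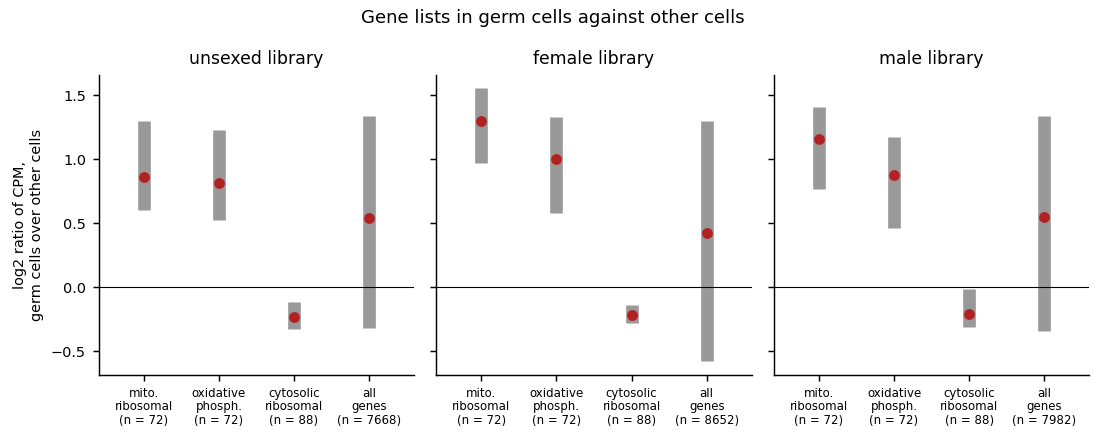
Log2 ratio of CPM + 1, germ over other cells, for the members beside related gene lists and all genes in the 3 libraries, as the median (point) and quartiles (bar) over genes. The members' medians are 0.86 (unsexed), 1.30 (female) and 1.16 (male), and those of the cytosolic ribosomal proteins are -0.24, -0.22 and -0.21.

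Lists of genes that act with the mitochondrial ribosome are read beside the all-gene medians of 0.54, 0.42 and 0.54 in the unsexed, female and male libraries. Their counts past 2-fold higher are read beside the all-gene shares of 35.4%, 32.4% and 35.5%, in that order. The 15 mitochondrial tRNA synthetases had median log2 ratios of 1.01, 1.61 and 1.77, with 8, 11 and 10 genes past 2-fold higher. In the unsexed library these counts rest on few UMIs in other cells, 5 of the 15 intervals lay above 1, and PheRS-m was past 2-fold lower, with 34.0 CPM in germ and 138 CPM in other cells. The unsexed ratio of the summed synthetases was 0.954 (0.832 to 1.10), on the other side of equality from the list's median. The median was 0.82, 1.004 and 0.87 for oxidative phosphorylation. For the 8 translation factors it was 0.57, 0.94 and 0.81, with 2, 4 and 3 past 2-fold higher. In the unsexed library mEFG1 (ratio 0.57), mEFTu2 (0.68) and mRF1 (0.81) were below equality, the last 2 with intervals that include 1. Cytosolic ribosomal proteins had medians of -0.24, -0.22 and -0.21. The translation factor with the largest ratio was the ribosome recycling factor mRRF1. It stood at 91.4 CPM in germ and 7.74 CPM in other cells of the unsexed library, the latter from 6 UMIs. Its levels were 79.0 and 5.97 CPM in the female and 86.6 and 5.37 CPM in the male library. Other cells are a mixture, with nervous-system markers at 440, 840 and 1175 CPM in the unsexed, female and male libraries. In the same order, epidermis markers stood at 556, 740 and 604 CPM and mesoderm and muscle markers at 311, 519 and 285 CPM. The ratios describe that mixture.

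Members with short transcripts had, at the median, higher levels in unsexed than in sexed low-pgc cells. In low-pgc germ cells, the 23 members whose longest annotated transcript is under 700 bases had a median log2 ratio of 0.35 unsexed over female and 0.49 unsexed over male. Of these 23, 18 were above 0 over female and 21 over male, and 3 and 5 were past 2-fold. The exceptions were mRpL13 (ratio 0.78 over female and 0.69 over male), mRpS6 (0.97 and 0.95) and, over female alone, mRpL30, mRpS25 and mRpL14. The genes below 0 over female alone are all X-linked, so their female ratios also hold the X difference described above. The 27 members of 700 to under 1000 bases had -0.06 and -0.14, and the 22 longer members -0.07 and -0.13. All genes gave 0.31 and 0.31 under 700 bases, 0.03 and -0.10 at 700 to under 1000 bases, and -0.25 and -0.24 above. The large-subunit gene mRpL34 (327 bases) had 337 CPM in unsexed, 72.7 CPM in female and 61.8 CPM in male low-pgc cells. For mRpL33 (349 bases) the levels were 332, 99.8 and 65.4 CPM, and for mRpS21 (475 bases) 359, 150 and 136 CPM. As mRpL33 is X-linked, its male ratio also holds the X difference described above. The rank of mRpL33 and mRpL34 among the most abundant members therefore holds for the unsexed library. Kit, age and library cannot be told apart here.

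**Figure D5:**
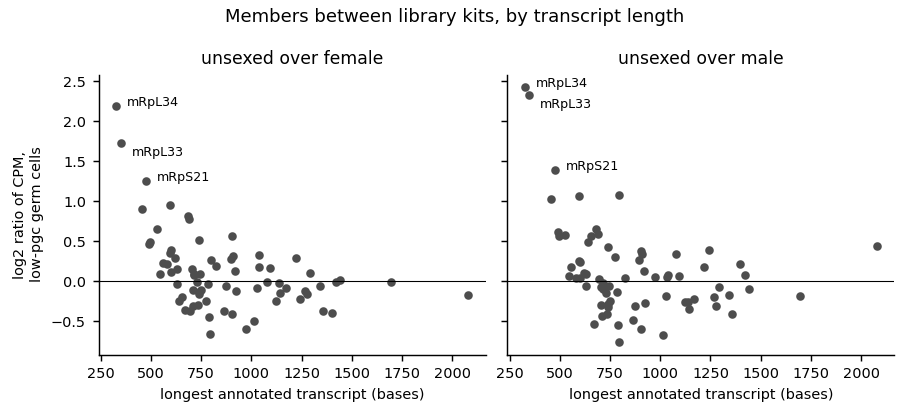
Log2 ratio of CPM + 1 (vertical axis), unsexed over female and unsexed over male low-pgc germ cells, against the longest annotated transcript of each member (bases, linear axis). Members under 700 bases have medians of 0.35 and 0.49, and mRpL34 and mRpL33 lie highest over the male library.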

How the data were processed

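The authors deposited UMI counts per gene and cell, and the matrices were used as deposited. Dense tables with more UMIs for the sexed libraries served as an alternative source. They were made with Cell Ranger on BDGP6, per the submitters' processing notes, and written by 10x software version 3.0.1 (unsexed) and 3.1.0 (female and male), per the file headers. Filters kept cells with at least 1000 UMIs, 500 genes and no more than 20% mitochondrial UMIs. Mitochondrial genes held UMIs in the unsexed library alone and were left out of all totals. The highest Scrublet scores (scanpy 1.11.5) were removed at 0.8% per 1000 cells, a loss of 114 cells (unsexed), 845 (female) and 358 (male). UMIs were summed per class and scaled to CPM. Log2 ratios used a pseudocount of 1 CPM, and genes with at least 50 UMIs over both classes were compared. TMM factors came from edgeR 4.0.16. UMI sums carry exact Poisson intervals and ratios exact conditional intervals, at 95%. The ratio procedure was tested on simulated data.

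Gene positions, strands, overlaps and transcript lengths came from Ensembl release 115 (BDGP6.54). The deposited ID of mRpS5 was absent there, so that gene was matched by symbol. The members and lists were chosen with earlier results of these data known. Named members were the 8 highest and 8 lowest ratios for pgc in the unsexed library, the 5 highest and 5 lowest elsewhere, the 5 highest and 3 lowest levels in unsexed germ cells, and a fixed list of 10 (mRpL10, mRpL12, mRpL44, mRpL45, mRpL55, mRpS5, mRpS9, mRpS29, tko and bonsai). The other X-linked members, the members against the length pattern and the genes of related lists were named after their values were seen, and the comparison by transcript length was added then. The listed symbols PolrMT and PolG2 had no match. Promoter motifs were not analysed here.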

Additional observations from a re-analysis of the deposited data

How the results depend on the processing

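No paired analysis was possible because each group has 1 library. Among the summary values under the alternatives, 254 stayed within 1.5 times (counts) or within the 95% order-statistic interval over members (medians) and 25 moved. The medians for pgc in the sexed libraries, close to 0, changed sign in 2 (female) and 3 (male) of 14 alternatives, and ranged from -0.13 to 0.08 and from -0.04 to 0.01. Of the single members' values, 889 kept and 119 moved. The cause of each shift was not tested. TMM scaling gave 5 members higher and a median of 0.24 for pgc in the unsexed library, a median of -0.0596 between the sexes, and medians of 0.68, 0.76 and 0.95 for germ over other cells in the unsexed, female and male libraries, with 21 members higher in the female one. Germ cells taken at 2 of 7 genes gave 2 members higher and a median of -0.23 between the sexes, a median of -0.13 for female pgc and of 1.16 for female germ over other cells. Other cells taken as all that fail the germ-cell rule gave 8 members higher and a median of 0.73 in the male library. Between the sexes, 3 members were higher with doublets kept (median -0.19), 3 with a pseudocount of 5 CPM and 1 among cells with at least 100 CPM of pgc. Lower fold limits gave 25 members higher for pgc in the unsexed library, 1 lower for pgc in each sexed library, and 11 higher in females. For germ over other cells they gave 55 higher and 2 lower in the unsexed and 2 lower in the male library. Thinning to 2000 UMIs gave 2 members lower in germ cells of the unsexed library. The dense table of the unsexed library was not run, since it holds the matrix values. Depth limits most the other cells of the unsexed library, with 4215 member UMIs in all.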
